A study of Mus musculus with 6 samples.

Results

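The TGF-beta pathway was followed in mouse islets of Langerhans through 10 genes: the ligand Tgfb1, the receptors Tgfbr1, Tgfbr2 and Tgfbr3, the pseudoreceptor Bambi and its pseudogene Bambi-ps1, and Smad2, Smad3, Smad4 and Smad7. Every probe set (a group of array probes that reads a transcript) whose annotated symbol was exactly one of these genes was taken, which gave 22 of the 45037 probe sets tested. The genes were chosen with the Tead1KO and Flox values of Smad3 and Bambi-ps1 known, and the whole comparison was in view. The members' levels and differences are therefore descriptions, and no p-value is given for them. Islets came from 12-week-old male C57Bl6 mice, with 3 arrays from mice that lack Tead1 in beta cells (Tead1KO) and 3 from flox mice (Flox). Tead1 is a DNA-binding transcription factor of the Hippo pathway. The labels name no Cre driver and do not say whether Flox mice carried Cre. They do not tie arrays to single animals, so p-values may measure only the technical spread between these samples.

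TGF-beta binds the type II receptor Tgfbr2, which activates the type I receptor kinase Tgfbr1, while the coreceptor Tgfbr3 (betaglycan) presents ligand to them. Tgfbr1 phosphorylates Smad2 and Smad3, which join Smad4 and act on genes in the nucleus. Smad7 blocks the activated receptor and is itself induced by the pathway, and Bambi resembles a type I receptor but lacks the kinase domain and dampens signalling. In mouse beta cells Smad3 is known as a repressor of insulin gene transcription, and it is counted among the genes that mature beta cells keep low.

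Smad3 is a protein-coding gene at chr9:63646766-63757994 (GRCm38.p6) and Bambi-ps1 a transcribed pseudogene at chr2:122466583-122467797. Tgfbr1 lies on chromosome 4, Tgfbr3 on chromosome 5, Tgfb1 on chromosome 7 and Tgfbr2 on chromosome 9. The promoter of Smad3 is shown because its signal differed most among the members and because the deleted factor binds DNA. The RefSeq window is chr9:63757945-63758244 of GRCm38.p6, minus strand, 250 bases before and 50 bases from the annotated start, written 5′ to 3′. Capitals mark the only match to the core letters of a Smad binding element, AGAC, with both strands searched.
Smad3: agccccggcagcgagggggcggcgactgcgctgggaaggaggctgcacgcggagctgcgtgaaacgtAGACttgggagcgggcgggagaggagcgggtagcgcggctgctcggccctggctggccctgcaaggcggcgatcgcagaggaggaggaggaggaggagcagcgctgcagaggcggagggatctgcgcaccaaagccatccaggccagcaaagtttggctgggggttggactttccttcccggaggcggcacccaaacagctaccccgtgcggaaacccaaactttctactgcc
The core TEAD motif GGAATG, searched on both strands, had 0 matches in this window. With no TEAD match in the window, none overlapped the Smad letters. Of all 32851 promoter windows of this length, 14.7% held the TEAD letters and 88% held the Smad letters. The windows of Tgfb1 and Tgfbr2 had 0 TEAD matches and 1 Smad match each. Tgfbr1 had a pair of windows with 0 TEAD matches each, and 0 and 2 Smad matches. Matches for Smad2, Smad4, Smad7, Tgfbr3, Bambi and Bambi-ps1 are not reported here. A match is a description of letters and not a bound site.

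Signals are log2 values as the authors deposited them, so a difference of 1 is a doubling. Background was taken as the range of the bacterial control probe sets other than the hybridization controls, 2.87 to 4.70. The arrays were not alike in quality. Tead1KO replicate 3 had the highest signal of the spiked hybridization controls (13.23, against 10.60 to 12.09 on the other arrays) and the lowest mean correlation with the others (0.969, against 0.984 to 0.986). Member values are therefore also given without it. The targeted gene did not separate the groups. The brighter Tead1 probe set read 6.72, 7.49 and 5.95 on the Tead1KO arrays, against 7.22, 6.99 and 7.40 on the Flox arrays (limma adjusted p = 0.871 over all probe sets). The dimmer one read 5.57, 5.41 and 4.98 in Tead1KO, against 6.14, 5.33 and 5.11 in Flox (adjusted p = 0.891). The array labelled Tead1KO replicate 2 thus read above every Flox array on the brighter probe set, and where these probes lie relative to the deleted exons is not stated in the labels, so they do not check them. The deletion was in beta cells, per the labels, while whole islets were measured.

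Of the 22 member probe sets, 2 passed limma's test over all probe sets at an adjusted p under 0.05: one of Smad3, higher in Tead1KO, and the single probe set of Bambi-ps1, lower. Among all 45037 probe sets 81 passed, which is 0.18% (0.131% higher and 0.0488% lower). That balance rested on single arrays, with 87 higher and 152 lower without Tead1KO replicate 2, and 4 higher and 0 lower without Tead1KO replicate 1. Since Smad3 and Bambi-ps1 were chosen from this contrast, nothing is read from that count. The 3 Tead1KO arrays lay above all 3 Flox arrays in 3 member probe sets and below them in 2, where 10.5% of all probe sets were separated in either direction (5.36% higher and 5.16% lower). The median difference was 0.01 over the member probe sets and 0.03 over all probe sets tested. In 6 of the 22, both group means lay within background, and in 15 both lay above it.

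**Figure D1:**
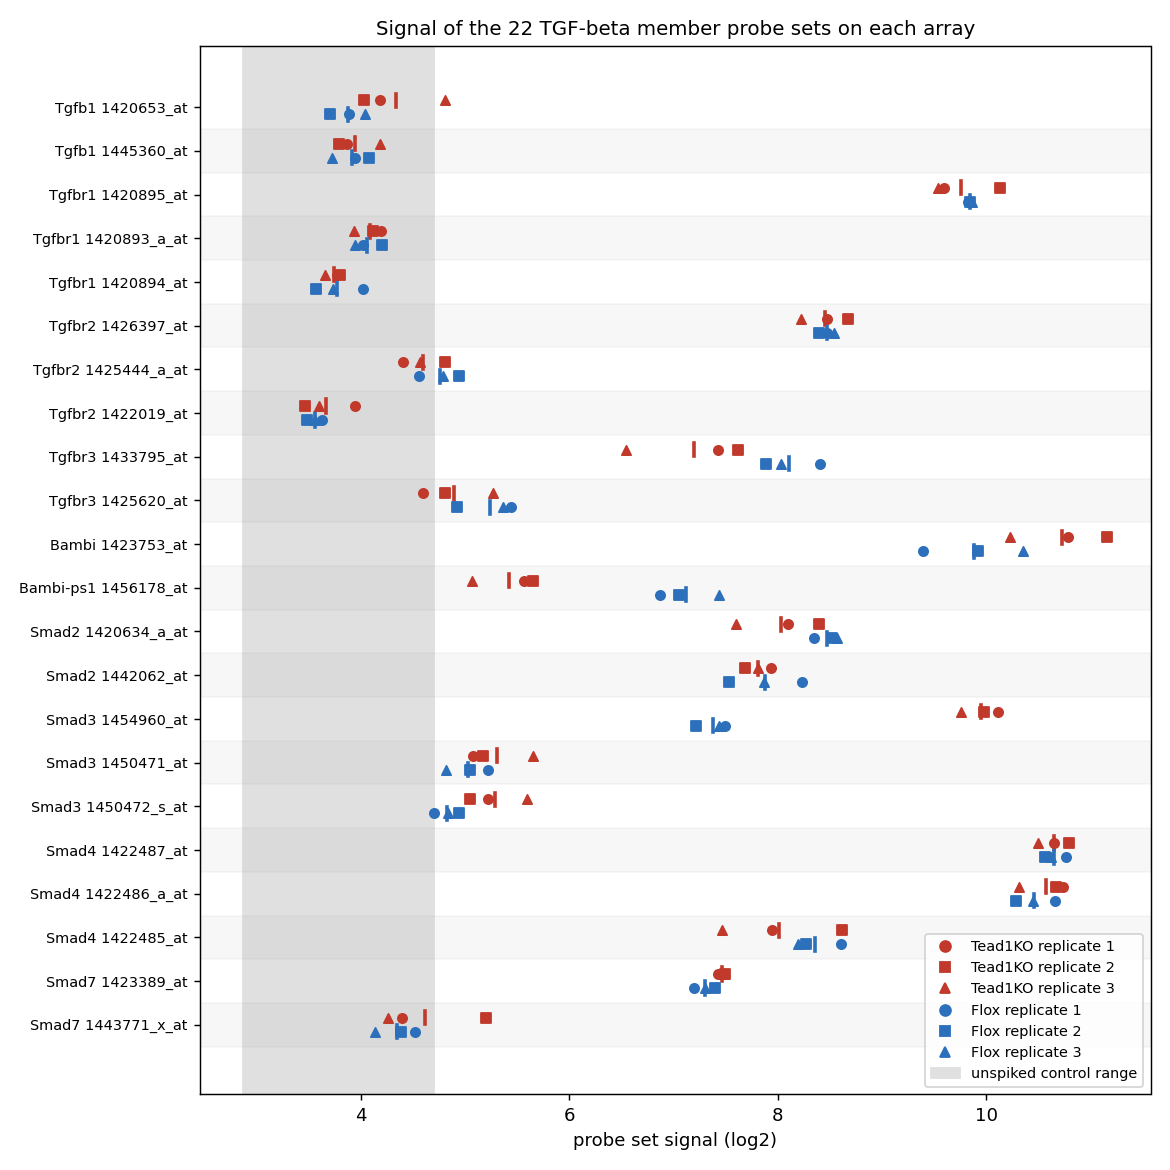
Probe set signal (log2, x axis) of the 22 member probe sets (rows, grouped by gene). Red points are Tead1KO arrays and blue points Flox arrays, the symbol gives the replicate, and vertical ticks mark group means. The grey band shows the background range of 2.87 to 4.70. The groups are widely apart for Smad3 1454960_at and Bambi-ps1 1456178_at, and both Tgfb1 probe sets have their means in the band.

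The ligand gene Tgfb1, which encodes the main secreted TGF-beta of many tissues, was hardly readable on these arrays. Its brighter probe set (1420653_at) read 4.18, 4.03 and 4.81 in Tead1KO, against 3.89, 3.70 and 4.04 in Flox. Both group means lay within background and only 1 of 6 arrays, Tead1KO replicate 3, read above it, so no fold is given. The other Tgfb1 probe set (1445360_at) read between 3.79 and 4.18 in Tead1KO and between 3.72 and 4.08 in Flox.

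The receptor kinases that start the signal showed no difference larger than the spread between arrays. The brightest Tgfbr1 probe set (1420895_at) read 9.60, 10.14 and 9.54 in Tead1KO, against 9.82, 9.85 and 9.86 in Flox. The Flox arrays lay between the Tead1KO arrays, and the log2 difference, Tead1KO minus Flox, was -0.09 (moderated SE 0.19). The brightest Tgfbr2 probe set (1426397_at) read 8.47, 8.68 and 8.22 in Tead1KO, against 8.48, 8.40 and 8.54 in Flox, a log2 difference of -0.01 (SE 0.17). Without Tead1KO replicate 3 these differences were 0.02 for Tgfbr1 and 0.10 for Tgfbr2. The further probe sets of both genes lay within or near background in both groups.

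The coreceptor Tgfbr3 did not pass the test, although its groups did not overlap. Its brightest probe set (1433795_at) gave 7.43, 7.62 and 6.54 in Tead1KO, against 8.41, 7.89 and 8.03 in Flox. All Tead1KO arrays lay below all Flox arrays, with replicate 3 far below the other Tead1KO arrays. The group means were 7.20 ± 0.57 in Tead1KO and 8.11 ± 0.27 in Flox (SD, n = 3 each), a log2 difference of -0.91 (SE 0.30), and the difference was -0.58 without Tead1KO replicate 3. This probe set did not pass the test over all probe sets in any of 14 alternatives. The second Tgfbr3 probe set (1425620_at) read 4.60, 4.81 and 5.27 in Tead1KO, against 5.44, 4.92 and 5.36 in Flox, with overlapping groups close to background. Values are of whole islets, where fewer cells of a type and less RNA per cell cannot be told apart.

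Bambi had overlapping groups with a higher mean in Tead1KO, while its pseudogene read lower in Tead1KO without overlap. Bambi was read by 1 probe set (1423753_at), with 10.79, 11.16 and 10.23 in Tead1KO, against 9.39, 9.92 and 10.35 in Flox. Tead1KO replicate 3 lay below Flox replicate 3, so the groups overlapped, although the means were 10.72 ± 0.47 in Tead1KO and 9.89 ± 0.48 in Flox (SD, n = 3 each). The log2 difference was 0.84 (SE 0.30). It was 1.09 without Tead1KO replicate 3 and 1.27 with the hybridization control signal in the model. The last is the only 1 of 14 alternatives in which Bambi passed the test over all probe sets.

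Bambi-ps1 was likewise read by 1 probe set (1456178_at), with 5.56, 5.65 and 5.06 in Tead1KO, against 6.87, 7.05 and 7.44 in Flox. Every Tead1KO array lay more than 1 unit below every Flox array, and all 6 lay above background. The log2 difference was -1.69 (SE 0.23), which is 3.24-fold lower in Tead1KO, and it ranked 103 by size among 45037 probe sets. It lay between -1.82 and -1.43 over 14 alternatives and kept its call in 8 of them. The call ended with median centring, with the replicate number as a block, without Tead1KO replicate 1 and without each Flox array in turn. Bambi-ps1 was chosen from this contrast, so these calls are no support for its difference. A pseudogene shares sequence with its parent gene, and how far each probe set reads the transcript of the other was not tested.

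Smad3 had the largest difference of the members, on 1 of its 3 probe sets. Probe set 1454960_at read 10.12, 9.98 and 9.76 in Tead1KO, against 7.49, 7.22 and 7.43 in Flox. Every Tead1KO array lay more than 2 units above every Flox array, far beyond the spread within either group. The means were 9.95 ± 0.18 in Tead1KO and 7.38 ± 0.14 in Flox (SD, n = 3 each), a log2 difference of 2.57 (SE 0.17), or 5.94-fold higher in Tead1KO. By size it ranked 23 among 45037 probe sets. The difference lay between 2.49 and 2.69 over 14 alternatives and passed the test in 13, failing without Tead1KO replicate 1. It was 2.67 without Tead1KO replicate 3. Smad3 was chosen from this contrast, so these calls are no support for its difference.

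The other Smad3 probe sets lay just above background and showed far smaller differences. Probe set 1450472_s_at read 5.23, 5.05 and 5.59 in Tead1KO, against 4.70, 4.94 and 4.84 in Flox, without overlap (log2 difference 0.46, SE 0.18). Probe set 1450471_at read 5.08, 5.18 and 5.66 in Tead1KO, against 5.23, 5.05 and 4.82 in Flox, with overlapping groups (0.27, SE 0.20). Without Tead1KO replicate 3 these differences were 0.31 and 0.10. The platform annotation gives both dim probe sets 1 source sequence and the bright one another, and which part of the transcript each reads was not tested. When all probe sets of a gene were averaged, the difference of Smad3 was 1.10.

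Smad2 and Smad4, the partners of Smad3, showed small differences with overlapping groups. Smad2, the other receptor-activated Smad of this branch, read 8.10, 8.40 and 7.60 in Tead1KO on its brightest probe set (1420634_a_at), against 8.35, 8.52 and 8.57 in Flox. The groups overlapped and the log2 difference was -0.45 (SE 0.22), or -0.23 without Tead1KO replicate 3. The second Smad2 probe set (1442062_at) differed by -0.06. Smad4, the shared partner, read 10.65, 10.80 and 10.49 in Tead1KO on 1422487_at, against 10.76, 10.57 and 10.62 in Flox, a log2 difference of -0.00 (SE 0.15). Its further probe sets differed by 0.11 and -0.35, with overlapping groups.

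Smad7, the inhibitory Smad that TGF-beta signalling induces, read 7.43, 7.49 and 7.49 in Tead1KO on 1423389_at, against 7.20, 7.40 and 7.31 in Flox. The arrays did not overlap, but the log2 difference of 0.17 (SE 0.15) was small and close to its error. The dim Smad7 probe set (1443771_x_at) had both means within background.

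**Figure D2:**
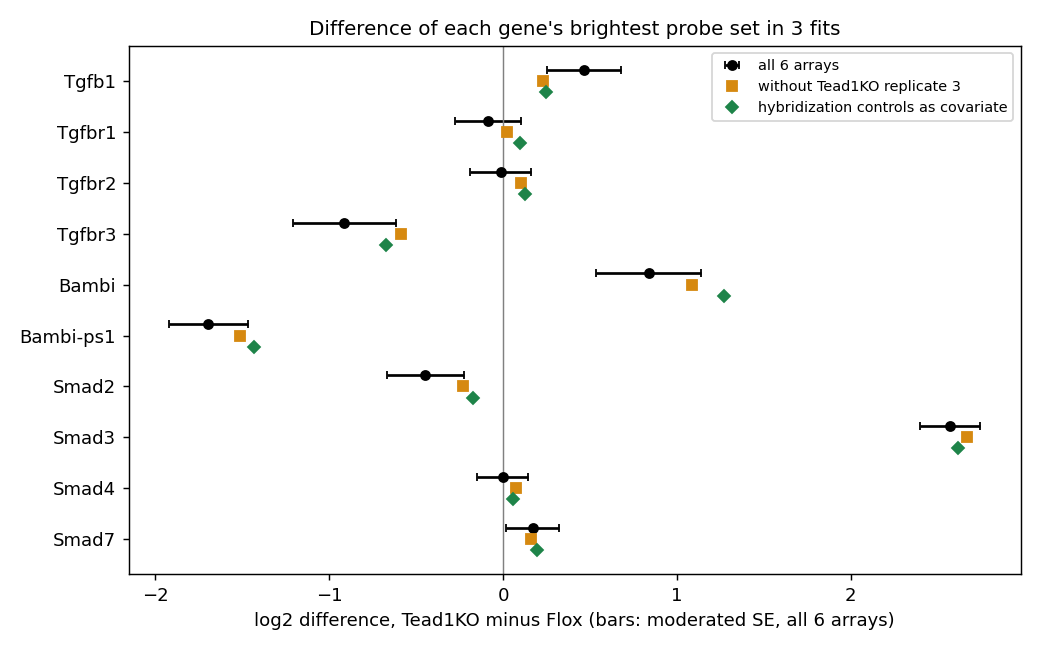
Log2 difference, Tead1KO minus Flox (x axis), of the brightest probe set of each of the 10 genes (rows), fitted with all 6 arrays (black, bars are the moderated SE), without Tead1KO replicate 3 (orange) and with the hybridization control signal as a covariate (green). Smad3 stays near 2.6 and Bambi-ps1 between -1.7 and -1.4, while Tgfbr3 is nearer 0 and Bambi farther from 0 in both other fits.

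The rest of the pathway was examined in 6 lists of genes that are no members, written with an earlier account of these data known. Each gene was read by its brightest probe set and tested with limma over 18193 genes. Of 96 list genes measured, 0 passed in either direction. At an unadjusted p under 0.05, 6 were higher and 4 lower. Over all genes 94 passed, which is 0.517%, and 7.41% had an unadjusted p under 0.05. The count of list genes that passed was also 0 without Tead1KO replicate 3.

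Of 15 genes measured in the list of other ligands, 0 passed the test and 3 had an unadjusted p under 0.05. A difference above 0 was found for 14 of them, against 8902 of all 18193 genes, and the median was 0.16, against -0.01 over all genes. The only gene of the list below 0 was Bmp1 (-0.35), which is a protease and not a ligand despite its name. Without Tead1KO replicate 3 the median was 0.13, with 11 above 0. Without Flox replicate 1 it was 0.11, with 10 above 0, and with the control covariate it was 0.09, with 13 above 0. The largest difference was that of Gdf10, a family member also called Bmp3b. It read 7.73, 8.49 and 8.08 in Tead1KO, against 6.36, 6.95 and 6.71 in Flox. The groups were well separated (log2 difference 1.43, SE 0.24, limma adjusted p = 0.0637), and the adjusted p lay between 0.00814 and 0.309 over 15 alternatives, 4 of which called it. Bmp5 differed by 0.43 (adjusted p = 0.663) and Inhbb, the beta B subunit of activin and inhibin, by 0.39 (adjusted p = 0.689). The 3 genes with an unadjusted p under 0.05 were Gdf10, Bmp5 and Bmp2, and Bmp2 lay within background in both groups.

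Genes of ligand latency, activation and antagonism had a median of -0.12 over 16 measured, with 10 below 0. At an unadjusted p under 0.05, 1 was higher and 2 were lower. Itgb8, an integrin subunit that releases latent TGF-beta, read 4.76, 5.50 and 4.59 in Tead1KO, against 5.57, 5.58 and 5.98 in Flox (log2 difference -0.76, SE 0.25, limma adjusted p = 0.461). It passed in 1 of 15 alternatives, without Tead1KO replicate 2 (adjusted p = 0.0457, with a range from 0.0457 to 0.998). Itgav, its alpha chain partner, read 8.93, 10.47 and 7.16 in Tead1KO, against 10.08, 10.25 and 10.11 in Flox, so its difference of -1.30 came with a wide spread in Tead1KO (SE 0.69, adjusted p = 0.738). Over 15 alternatives it lay between -2.11 and -0.24. The activin antagonist Fstl3 differed by -0.43 and the BMP antagonist Chrd by 0.43, and neither passed.

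The other receptors and Smads showed little. Of 12 receptors and coreceptors measured, 7 lay above 0 and 5 below, with a median of 0.01 and 0 with an unadjusted p under 0.05. Those with the smallest p were Bmpr1b (0.36), Amhr2 (0.33), Bmpr2 (-0.42) and Tdgf1, which lay within background. The Bmpr2 difference was -0.03 without Tead1KO replicate 3 and -0.71 without Tead1KO replicate 2, and that of Amhr2 was 0.15 without Flox replicate 1. Bmpr1b lay between 0.22 and 0.51 when each array in turn was left out. Of 14 other Smads and partners, 7 lay above 0 and 7 below, with a median of -0.00 and again 0 with an unadjusted p under 0.05. Smad1, a Smad of the BMP branch, read 7.91, 8.94 and 7.36 in Tead1KO, against 8.28, 8.90 and 8.59 in Flox (difference -0.52, adjusted p = 0.774). With 1 array left out at a time, the difference lay between -0.96 and -0.16, and it was 0.02 with the control covariate. Jun differed by 0.30, Zfyve9, an adaptor that brings Smads to the receptor, by 0.18, and Trim33 by -0.18, with ranges of 0.14 to 0.43, 0.08 to 0.34 and -0.23 to -0.09 when each array in turn was left out.

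Of 17 genes measured in a list drawn up as negative regulators, 0 passed the test. Usp9x, Usp15 and Rnf111 of this list can also promote signalling, so its counts and median are not of inhibitors alone. With all arrays 15 of the 17 were below 0 with a median of -0.17. Without Tead1KO replicate 3, however, 8 were below 0 and the median was 0.01. With the hybridization controls as a covariate 11 were below 0 (median -0.06). The ubiquitin ligase Wwp2 differed by -0.41, Strap by -0.47 and the deubiquitinase Usp9x by -0.71 (adjusted p = 0.699), and none passed. Without Tead1KO replicate 3 these differences were -0.21, -0.28 and -0.38, and without Tead1KO replicate 2 they were -0.48, -0.70 and -1.08. Tgif1, a corepressor of Smads, was within background in Flox and read 5.12, 4.73 and 5.45 in Tead1KO (log2 difference 0.58, adjusted p = 0.485).

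Genes listed as targets of Smad3 lay on both sides of 0. The list mixes genes that TGF-beta signalling induces with genes it can repress, such as Myc, or that also follow BMP signalling, such as Id1. Its split and median thus have no expected sign. Of 26 measured, 10 lay above 0 and 16 below with a median of -0.05, and 1 was higher and 2 lower at an unadjusted p under 0.05. Single arrays moved this split. Without Tead1KO replicate 3, 15 lay above 0 and the median was 0.04, while without Tead1KO replicate 2, 5 lay above 0 and the median was -0.20. Without Flox replicate 1, 9 lay above 0, also with a median of -0.20. Col1a2, a chain of collagen I, read 10.01, 9.89 and 9.70 in Tead1KO, against 9.50, 9.22 and 9.03 in Flox (log2 difference 0.62, SE 0.18, limma adjusted p = 0.325). Its difference lay between 0.51 and 0.74 when each array in turn was left out, but between 0.26 and 0.76 over all 15 alternatives. Cdkn2b, an inhibitor of G1 kinases that TGF-beta is known to induce, read 6.03, 5.89 and 5.80 in Tead1KO, against 6.79, 7.12 and 6.50 in Flox. Its arrays did not overlap and the difference was -0.90 (SE 0.19, adjusted p = 0.152). Acta2, smooth muscle actin, read 7.66, 7.72 and 7.00 in Tead1KO, against 8.14, 8.31 and 8.89 in Flox (-0.99, SE 0.27, adjusted p = 0.294), but its difference was 0.15 when probe sets that may cross-match other transcripts (names ending in _s_at or _x_at) were omitted. Klf10, an early TGF-beta response gene, read 8.74, 7.88 and 7.70 in Tead1KO, against 7.45, 7.61 and 7.64 in Flox (difference 0.54, adjusted p = 0.72). Tead1KO replicate 1 stood above the other arrays, and without it the difference was 0.22. Ccn2 (0.11), Skil (-0.03), Pmepa1 (-0.25) and Id1 (0.03), also of this list and singled out after their values were seen, had small differences.

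**Figure D3:**
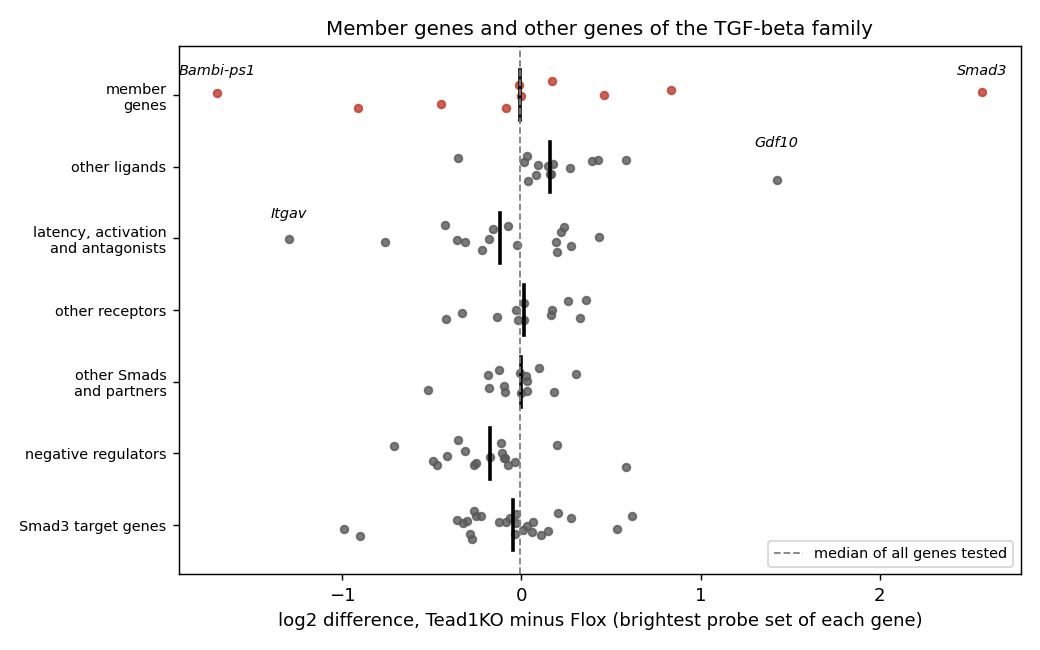
Log2 difference, Tead1KO minus Flox (x axis), of the brightest probe set of each gene, for the 10 member genes (red) and the genes of 6 lists (grey, rows). Black bars are list medians, the dashed line is the median of all genes tested, and points are shifted vertically at random for legibility. Smad3 and Bambi-ps1 lie outside the range of every list, which runs from -1.30 (Itgav) to 1.43 (Gdf10). Both were chosen from this same contrast, so nothing is read from that.

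The genes whose 6 array values were most like those of Smad3 were Arrb1, Aldh1a3, Dpep1, Crmp1 and 2610028H24Rik. Likeness was the root mean square distance between array values centred on each gene's mean, over 14290 genes above background. It was 0.23 for Arrb1, an arrestin that quenches receptor signals, 0.24 for Aldh1a3, an enzyme of retinoic acid synthesis, and 0.26 for 2610028H24Rik. Arrb1 read 8.58, 8.33 and 8.10 in Tead1KO, against 6.30, 6.03 and 6.32 in Flox. Those most like Bambi-ps1 were Trpm5, Slc12a7, 1500009L16Rik, Aqp4 and St8sia5, at distances from 0.15 to 0.21. Trpm5, a cation channel of beta cells, read 9.04, 9.20 and 8.56 in Tead1KO, against 10.20, 10.52 and 10.54 in Flox. As in Bambi-ps1, Tead1KO replicate 3 was the lowest array in all 5 of these genes. The distances are dominated by the difference between the groups.

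**Figure D4:**
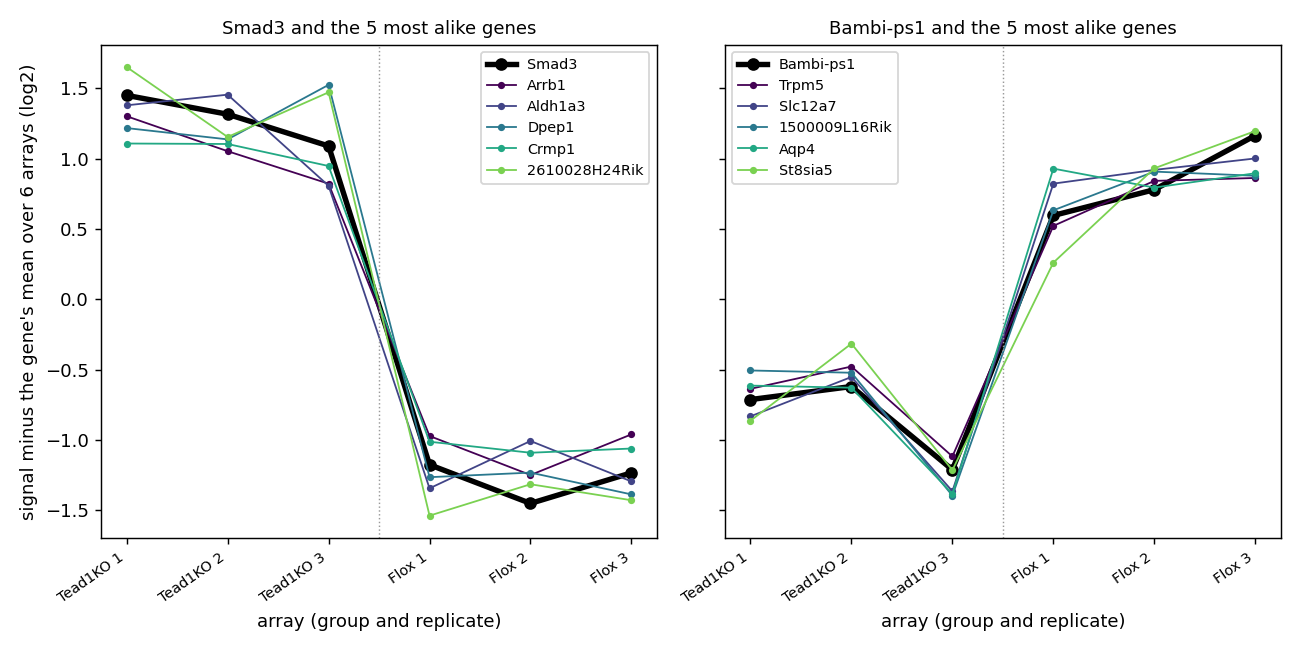
Log2 signal minus the gene's mean over the 6 arrays (y axis) on each array (x axis, Tead1KO left of the dotted line and Flox right) for Smad3 (left, black) and Bambi-ps1 (right, black) with the 5 most alike genes each (coloured lines). Smad3 lies between 1.09 and 1.45 above its mean on the Tead1KO arrays, and Tead1KO replicate 3 is the lowest array for Bambi-ps1 and its 5 alike genes.

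Islet hormone transcripts were near the top of the scale, with Ins2 at 15.69 in Tead1KO and 15.69 in Flox, and Gcg at 14.74 in Tead1KO and 14.74 in Flox. Among 5 measured beta cell markers, 0 passed the limma test over all genes and 3 were lower at an unadjusted p under 0.05. Those 3 were Ucn3 (-0.95, limma adjusted p = 0.056), Nkx6-1 (-0.95, adjusted p = 0.0637) and Slc2a2 (-0.82, adjusted p = 0.194). Ins2 (-0.01) and Iapp (0.03) hardly differed. The mean of the 5 per array lay between 12.96 and 13.33 in Tead1KO, against 13.59 to 13.75 in Flox. Among 9 markers of stellate cells, fibroblasts and pericytes, 0 passed, 2 were higher and 1 lower at an unadjusted p under 0.05, and the mean lay between 7.20 and 7.63 in Tead1KO, against 7.09 to 7.33 in Flox. Dcn, a matrix proteoglycan (1.11), and Col1a2 (0.62) were the 2, and the pericyte marker Rgs5 (-0.62) the 1. Pdgfra, which marks fibroblasts, had a mean of 4.71 in Tead1KO and 4.67 in Flox, at the edge of background. Of 7 macrophage markers 0 passed and 1 was higher at an unadjusted p under 0.05, and their mean lay between 7.23 and 8.30 in Tead1KO, against 7.31 to 7.82 in Flox. Of 7 endothelial markers 0 passed and 0 had an unadjusted p under 0.05, with 7.71 to 8.02 in Tead1KO, against 7.81 to 7.90 in Flox. The same counts were 0 and 0 for 6 acinar markers, with 12.19 to 14.20 in Tead1KO, against 12.03 to 14.31 in Flox, so exocrine signal varied within both groups. Of 4 lymphocyte markers 0 passed and 1, Cd79a (-0.85, limma adjusted p = 0.0725), was lower at an unadjusted p under 0.05. The lymphocyte mean lay between 4.95 and 5.42 in Tead1KO, against 5.42 to 5.58 in Flox. Both counts were 0 for the alpha, delta, PP, duct and Schwann cell markers. The part of these cell types in the values of Smad3, Bambi, Bambi-ps1, Tgfbr3 and Col1a2 was not tested.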

How the data were processed

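The authors deposited 1 column of log2 signals per array. The submitters' processing notes name Affymetrix Expression Console. Its version and settings for background, normalization and summary per probe set are not stated there. That the scale is log2 was inferred from values between 2.75 and 15.7. Values were used as deposited. Of 45101 probe sets, 64 controls were left out, 34945 carried 1 gene symbol, 932 several and 9160 were unnamed here. For gene lists, the brightest single-symbol probe set of each gene was used (18193 genes). Listed genes without one were not analysed here.

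Tead1KO was compared with Flox by limma 3.58.1 in R 4.3.3 (lmFit, eBayes with trend=TRUE, no covariate), with Benjamini-Hochberg adjustment over all probe sets, or over all genes for lists. SE is limma's moderated standard error. The number of arrays limits the precision. On simulated data for Tead1KO against Flox with 45037 probe sets, 36% of 100 changes of 1 log2 unit and 84% of 100 changes of 2 units were recovered. The simulated noise was independent between probe sets and arrays, without shifts shared by a whole array, so these rates may not hold for the real arrays. Genes named were all member probe sets, Tead1, in each list the genes of smallest unadjusted p, up to 4, and for Smad3 and Bambi-ps1 the 5 most alike genes, along with cell type markers. Exceptions are marked. Members, lists, tests and alternatives were chosen with earlier results of these data known.

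Alternatives were quantile normalization, median centring, omission of dim probe sets (mean at or below 4.70), no variance trend, a robust variance prior, the replicate number as a block, the mean of 18 hybridization control probe sets as a covariate, each array left out, averaged probe sets, and omission of _x_at and _s_at probe sets.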

Additional observations from a re-analysis of the deposited data

How the results depend on the processing

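With all 6 arrays 81 probe sets and 94 genes were called. The counts were 143 and 151 with quantile normalization, 42 and 58 with median centring, and 268 and 242 with the control signal as a covariate. Leaving out 1 array gave 4 to 239 probe sets, 12 to 303 genes and 0 to 2 list genes. Without Tead1KO replicate 1, 4 probe sets and 12 genes were called, without Tead1KO replicate 2 these were 239 and 303, and without Tead1KO replicate 3 186 and 177. Called genes were higher in Tead1KO in 64.9% with all arrays, but in 30% without Tead1KO replicate 2 (91 higher and 212 lower), so the direction of the balance turned, and in 100% without Tead1KO replicate 1. Without Flox replicates 1, 2 and 3 there were 9, 11 and 11 probe sets and 20, 18 and 17 genes. Of list genes, 1 (Gdf10) was called with quantile normalization (adjusted p = 0.0245), the replicate block (0.0215) and the control covariate (0.00814), and 2 (Gdf10 and Itgb8) without Tead1KO replicate 2. With quantile normalization the difference was 0.14 for Smad4 and 0.28 for Smad7. The average of the 3 Smad3 probe sets differed by 1.10. The cause of these shifts was not tested. The replicate number was not taken to pair the samples, since deviations of same-numbered arrays correlated at 0.06, 0.35 and -0.20. As a hint from the data, 2 of the 3 Tead1KO arrays correlated best with the Flox array of their own number, and the acinar means were 12.19 in Tead1KO and 12.03 in Flox for replicate 1, 14.20 and 14.00 for replicate 2, and 13.40 and 14.31 for replicate 3. With the replicate block 96 probe sets and 97 genes were called. Omitting dim probe sets left no value for Tgfb1. The brightest probe sets of Smad3, Bambi, Bambi-ps1, Tgfbr3, Smad2 and Smad7 kept their sign in all 14 alternatives fitted on probe sets.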

Other observations

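The chromosomal neighbours of Smad3 and Bambi-ps1, looked up after the members' values were seen, showed small differences where they were measured. Within 100 kb of Smad3 on GRCm38.p6, Aagab, which ends 2176 bases away, read 8.53 in Tead1KO and 8.58 in Flox (log2 difference -0.06, SE 0.15, limma adjusted p = 0.922). Iqch, 44240 bases away, lay within background in both groups (3.78 in Tead1KO and 3.70 in Flox). Within 100 kb of Bambi-ps1, the 1 neighbour measured was Shf, an adaptor protein gene 97436 bases away, with 5.68 in Tead1KO and 5.96 in Flox (difference -0.28, SE 0.25, adjusted p = 0.791).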
